A study of Mus musculus with 12 samples.

Results

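A set of 10 genes of the MHC class I presentation pathway were followed in CD8+ cells sorted from mouse tumours, where the study asked what surface asGM1 on such cells means. They were taken by symbol from the deposited gene table, and all 10 of 10 symbols were found among its 56980 genes. They are the class I heavy chains H2-K1 and H2-D1, the nonclassical chain H2-T23, the light chain B2m, the peptide transporter subunits Tap1 and Tap2, the loading chaperone Tapbp (tapasin), the immunoproteasome subunits Psmb8 and Psmb9, and the transactivator Nlrc5. All 10 were among the 20411 genes that passed the filter on low counts, and none passed through 1 group alone.

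The 12 libraries formed 4 groups of 3, all from C57BL/6J wild type mice. Live (DAPI-) CD45.2+ CD8+ cells were divided by surface asialo-GM1 (asGM1), a glycolipid, into asGM1+ and asGM1- cells. The groups were Flt3L Panc02 asGM1+, Flt3L Panc02 asGM1-, Panc02 asGM1+ and Panc02 asGM1-. Panc02 is a mouse pancreatic tumour line, and Flt3L Panc02 is its derivative expressing the dendritic cell growth factor Flt3L. The labels name no T cell receptor marker among the sort markers and give no age of the mice. They do not say whether replicates came from separate mice, so p-values measure the spread between these libraries, which may be technical. Totals lay between 98663008 and 102896605 counts per library.

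Class I molecules carry short peptides from inside the cell to its surface, where CD8+ T cells read them. The proteasome cuts proteins into peptides, and its interferon-induced form replaces catalytic subunits by Psmb8, Psmb9 and Psmb10. Tap1 and Tap2 pump the peptides into the endoplasmic reticulum, and tapasin holds the empty class I chain and B2m at that pump until a peptide binds. Interferon gamma raises most of these genes in part through Irf1, and Nlrc5 raises them through a conserved promoter module (the W/S, X1, X2 and Y boxes). In T cells and natural killer cells, class I levels are high without added interferon and depend in part on Nlrc5.

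The promoters of the chains are shown because they carry the letters through which these genes are known to be regulated. RefSeq windows on GRCm38.p6, from 250 bases before to 50 after each annotated start, were found for 8 of the 10 genes, and Tap2 and Nlrc5 are named only. The windows shown are chr17:34000284-34000583 on the minus strand for H2-K1 (the first of its 2 windows), chr17:35262844-35263143 on the plus strand for H2-D1, chr17:36032652-36032951 on the minus strand for H2-T23, chr2:122147437-122147736 on the plus strand for B2m and chr17:34187306-34187605 on the plus strand for Tap1. Capitals mark matches, on either strand, to the repeat of interferon-stimulated response elements, a kappa B pattern with free bases at its centre, TGACGC (the X2 box core) or CCAAT (the Y box core).
H2-K1: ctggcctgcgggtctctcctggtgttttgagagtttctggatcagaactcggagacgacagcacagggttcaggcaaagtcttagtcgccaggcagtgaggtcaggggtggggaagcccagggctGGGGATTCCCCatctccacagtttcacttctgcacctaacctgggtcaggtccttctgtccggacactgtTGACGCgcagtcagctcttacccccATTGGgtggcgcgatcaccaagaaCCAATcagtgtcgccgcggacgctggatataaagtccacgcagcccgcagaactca
H2-D1: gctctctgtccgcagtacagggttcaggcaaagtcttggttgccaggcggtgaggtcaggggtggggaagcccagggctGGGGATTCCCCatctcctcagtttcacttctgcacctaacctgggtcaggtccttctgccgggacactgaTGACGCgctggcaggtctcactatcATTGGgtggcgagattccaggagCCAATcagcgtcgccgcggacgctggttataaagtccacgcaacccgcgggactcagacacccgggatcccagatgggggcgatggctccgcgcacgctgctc
H2-T23: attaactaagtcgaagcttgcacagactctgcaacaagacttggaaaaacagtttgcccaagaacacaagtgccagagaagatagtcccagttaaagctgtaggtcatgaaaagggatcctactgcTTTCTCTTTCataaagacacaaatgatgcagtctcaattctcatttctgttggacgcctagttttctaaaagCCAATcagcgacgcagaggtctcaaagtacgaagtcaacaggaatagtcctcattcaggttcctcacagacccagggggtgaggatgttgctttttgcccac
B2m: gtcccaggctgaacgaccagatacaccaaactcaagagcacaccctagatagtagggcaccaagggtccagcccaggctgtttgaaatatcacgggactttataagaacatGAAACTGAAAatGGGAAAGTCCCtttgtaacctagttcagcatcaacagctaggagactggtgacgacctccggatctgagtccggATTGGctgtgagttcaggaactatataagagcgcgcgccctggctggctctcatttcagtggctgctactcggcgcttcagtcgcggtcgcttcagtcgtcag
Tap1: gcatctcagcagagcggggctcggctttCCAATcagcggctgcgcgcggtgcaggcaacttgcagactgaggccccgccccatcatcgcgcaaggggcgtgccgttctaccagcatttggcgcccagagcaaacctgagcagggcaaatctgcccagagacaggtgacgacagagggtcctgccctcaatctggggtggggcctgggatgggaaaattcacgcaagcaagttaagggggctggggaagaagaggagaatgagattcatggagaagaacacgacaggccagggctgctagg

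The H2-K1 and H2-D1 windows were near copies, with 222 of 253 aligned bases (87.7%) identical. Both held the kappa B pattern, matched on both strands 1 base apart, then TGACGC and then CCAAT on each strand. B2m also held the kappa B pattern, next to its interferon element. Of all 32851 RefSeq windows, 20.7% held the kappa B pattern, 7.4% held TGACGC and 37.4% held CCAAT. That Y box core was in the windows of all 8 genes but Psmb8. The response element repeat was in 3.44% of all windows and in those of H2-T23 (at -124 from the start) and B2m (at -139), and in no other window of the 8 genes. The search took exact matches to this repeat only, so a window without one, such as that of H2-K1 or H2-D1, may hold an interferon element of another form. TTCNNNGAA, the gamma-activated site pattern, was in 8.3% of all windows and in that of Psmb8. Tap1 and Psmb9 start next to each other on opposite strands, and their windows overlap over 275 bases, from 34187306 to 34187580 of chromosome 17.

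The 10 genes were among the most abundant messages of these cells. Per library they made up 2.36 to 2.95% of all counts. Their summed level averaged 27527 ± 2178 CPM (with library sizes scaled by edgeR's TMM factors) in Flt3L Panc02 asGM1+ cells, 26159 ± 2141 CPM in Flt3L Panc02 asGM1- cells, 24194 ± 1123 CPM in Panc02 asGM1+ cells and 27606 ± 1523 CPM in Panc02 asGM1- cells (SD, n = 3 each). With plain library totals the order within Flt3L Panc02 tumours turned, with means of 25439.6 CPM in asGM1+ and 27820.2 CPM in asGM1- cells. Nlrc5, the lowest, still had a higher mean CPM than 91.2% of the genes tested. In bulk libraries, fewer cells of a type and less RNA per cell cannot be told apart.

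Divided by merged exon length (GENCODE M21, on GRCm38, another build than the mm39 the authors' notes name), H2-D1 had the highest level, 4128 CPM per kb (range 3637 to 4806) over 12 libraries. B2m followed with 3855 CPM per kb (range 2902 to 4740.1), and its range overlapped that of H2-D1. H2-K1 had 2236 CPM per kb (range 1795 to 2642), below every B2m value. Psmb8 had 485 CPM per kb (range 417 to 634) and H2-T23 440.1 CPM per kb (range 357 to 545), and these ranges overlapped. The range of Tapbp, 299 CPM per kb (range 258 to 364), overlapped that of H2-T23 at its upper end. Psmb9 with 147 CPM per kb (range 122 to 185), Tap1 with 132 CPM per kb (range 115 to 156) and Tap2 with 125 CPM per kb (range 96.2 to 147) were not separated from each other. Nlrc5 had 13.5 CPM per kb (range 10.6 to 20.2), below all the others. Merged exons pool all annotated transcripts of a gene, 3660 bases for Psmb9 and 3381 for Psmb8. The message made can be shorter, so levels per kb can be too low and their order holds for this length only. The labels give no strand, so reads over the 212 exon bases that Tap1 and Psmb9 share on opposite strands cannot be assigned, nor can those over 698 bases of Tap2, 904 of Tapbp, 498 of Psmb8 and 78 of Nlrc5 that lie opposite other genes. Tapbp shares a further 149 exon bases with a gene on its own strand. Of the transcript words of 50 bases, 9.63% of those of H2-K1, 12.8% of those of H2-D1 and 13.6% of those of H2-T23 also occur in other genes, mostly class I relatives, so their counts are uncertain to that extent.

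**Figure D1:**
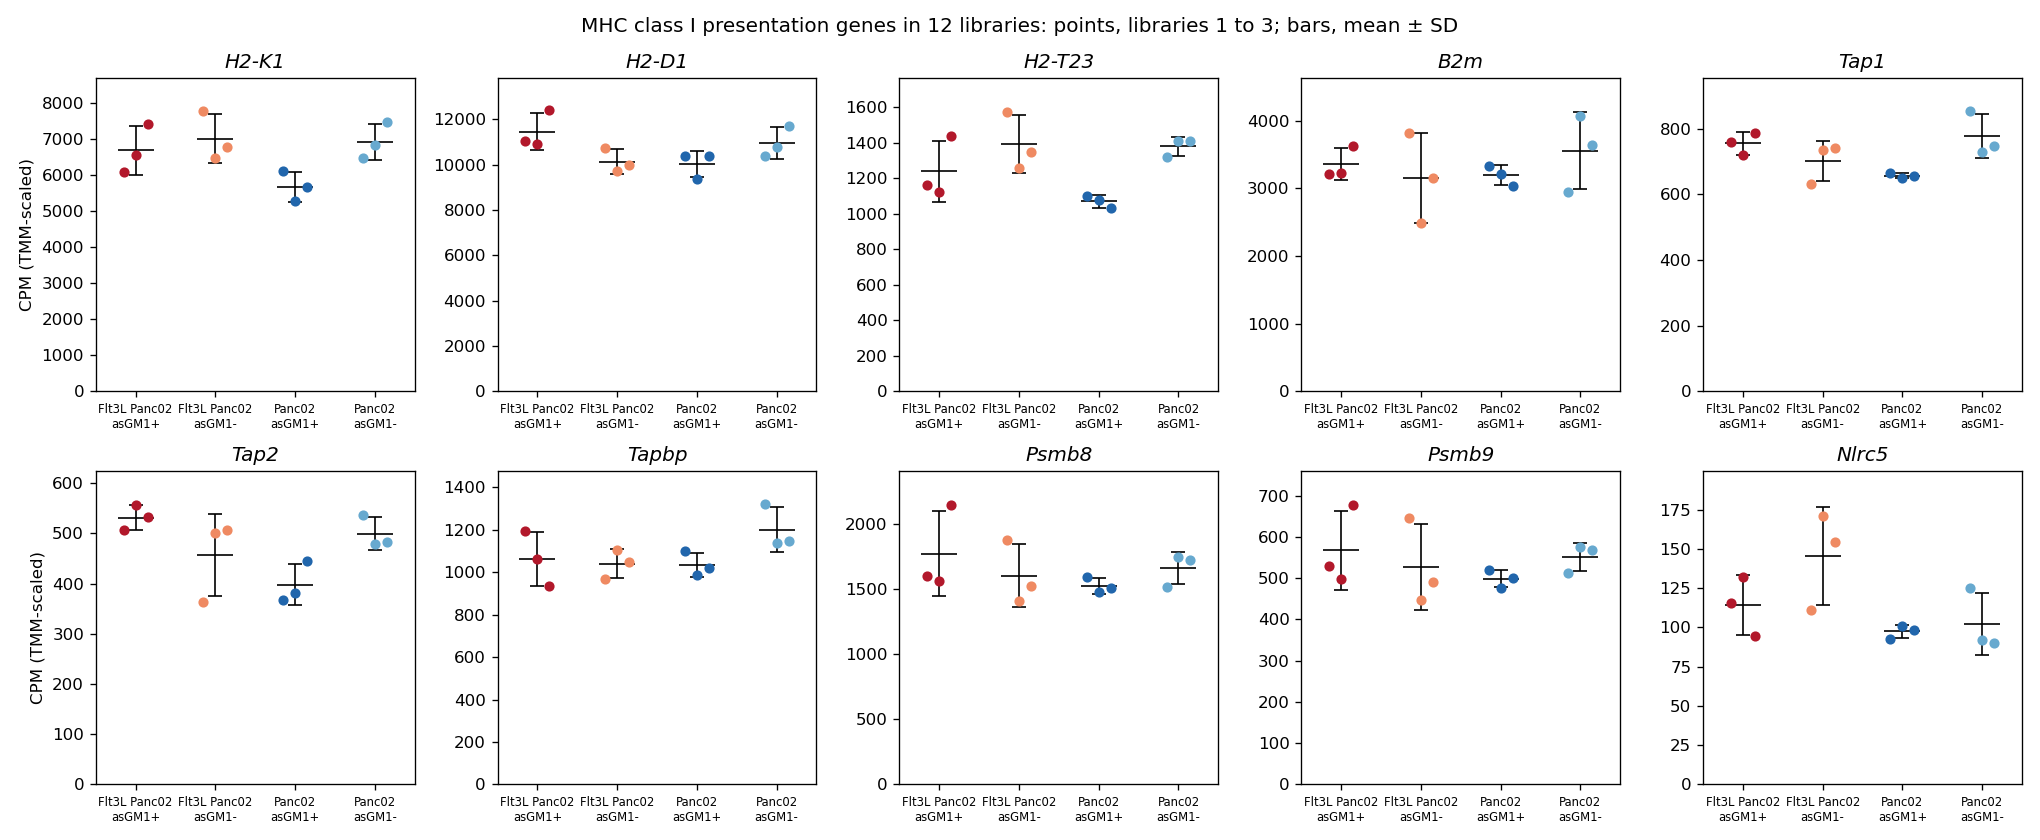
CPM of the 10 genes in each library (points, libraries 1 to 3 from left to right), with the group mean and SD as bars; the y axes start at 0 and differ between genes. The Panc02 asGM1+ libraries lie below all Panc02 asGM1- libraries for H2-K1, H2-T23, Tap1, Tap2 and Tapbp.

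The widest spread over the 12 libraries was that of Nlrc5, whose highest library was 1.90 times its lowest, and the narrowest that of H2-D1, 1.32 times. Each gene was compared between gates and between tumours in 1 edgeR quasi-likelihood model of the 4 groups, and a call required p under 0.05 after Benjamini-Hochberg adjustment over all 20411 genes. No gene of the 10 was called in any of the 7 comparisons. The values behind this follow, and log2 fold changes are given with their standard error and, where the size matters, their 95% interval.

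In Panc02 tumours all 10 genes had a lower fitted level in asGM1+ than in asGM1- cells, by a median log2 fold change of -0.19, and 0 of 10 were called. Over all genes the median was 0.02, 46.6% of fold changes were below 0, and 0.892% of genes were called. Among the 1793 genes at least as abundant as Nlrc5, the median was -0.02 and 42.1% were above 0. At an unadjusted p under 0.05, 4 of the 10 were lower (H2-K1, H2-T23, Tap1 and Tap2), against 5.44% of all genes. DESeq2 called 0 of the 10, with 2.81% of all genes called, and limma-voom called H2-K1 and H2-T23, with 4.07%.

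H2-K1, a classical chain that presents to CD8+ T cells, had 6105, 5273 and 5655 CPM in Panc02 asGM1+ libraries 1 to 3, against 6458, 6839 and 7459.5 CPM in Panc02 asGM1- libraries. Every asGM1+ value lay below every asGM1- value, and the log2 fold change was -0.29 ± 0.11 (adjusted p = 0.404). H2-T23, which makes Qa-1, the ligand of the CD94/NKG2A receptor, had 1099, 1078 and 1032 CPM in Panc02 asGM1+ and 1319, 1412 and 1412 CPM in Panc02 asGM1- libraries. These groups did not overlap either, and at -0.37 ± 0.12 H2-T23 had the lowest adjusted p of the 10 (0.251). Its 95% interval of -0.62 to -0.11 lay below 0, but the call over all genes was not reached.

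H2-D1, the other classical chain, overlapped between the gates, with 10386, 9379 and 10366 CPM in Panc02 asGM1+ and 10374, 10779 and 11716 CPM in Panc02 asGM1- libraries, where the highest asGM1+ value passed the lowest asGM1- value. Its log2 fold change was -0.13 ± 0.10 (adjusted p = 0.775). B2m, the light chain that every classical class I molecule needs, had 3328, 3213 and 3035 CPM in Panc02 asGM1+ against 2950.4, 4076 and 3641 CPM in Panc02 asGM1- libraries, a span that covered the asGM1+ values on both sides. Its log2 fold change of -0.16 ± 0.16 had an interval of -0.50 to 0.18.

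The transporter and loading genes had non-overlapping groups in Panc02 tumours. Tap1 had 665, 649.8 and 657 CPM in Panc02 asGM1+ and 855, 730.3 and 749 CPM in Panc02 asGM1- libraries (-0.24 ± 0.10, adjusted p = 0.404). Its 3 asGM1+ libraries were nearly level. Tap2 had 368, 381 and 445 CPM in Panc02 asGM1+ against 537, 479 and 483 CPM in Panc02 asGM1- libraries (-0.33 ± 0.13, adjusted p = 0.409). Every asGM1+ value again lay below every asGM1- value. Tapbp had 1098, 987 and 1019 CPM in Panc02 asGM1+ against 1322, 1136 and 1145 CPM in Panc02 asGM1- libraries (-0.21 ± 0.11, adjusted p = 0.556). In all, 5 of the 10 genes did not overlap and were lower in asGM1+ cells, where 8.92% of all genes were. Among the 1793 genes at least as abundant as Nlrc5, 20.7% did not overlap in 1 direction or the other. With plain library totals the number was again 5, but Tapbp then overlapped and Psmb9 did not, so which genes separated depended on the scaling.

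Psmb8 and Psmb9, the immunoproteasome subunits that flank Tap1, overlapped between the gates. Psmb8 had 1591, 1475 and 1507 CPM in Panc02 asGM1+ and 1517, 1746 and 1719.6 CPM in Panc02 asGM1- libraries (-0.12 ± 0.14). Psmb9 had 519, 477 and 501 CPM in Panc02 asGM1+ and 513, 575 and 568 CPM in Panc02 asGM1- libraries (-0.14 ± 0.15). In both, only library 1 of the asGM1- cells fell within the asGM1+ range. Nlrc5 had 92.7, 101 and 98.6 CPM in Panc02 asGM1+ against 125, 91.9 and 90.2 CPM in Panc02 asGM1- libraries, and its fold change of -0.07 ± 0.18 was the one nearest 0. Over the 10 genes, the 95% intervals allow folds between 0.650 and 1.25 for asGM1+ over asGM1- cells in Panc02 tumours.

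In Flt3L Panc02 tumours the gate difference of the 10 genes was small and mixed in direction: 7 were higher and 3 lower in asGM1+ cells, 0 were called, and the median log2 fold change was 0.10. The direction of these small differences depended on the scaling. With plain library totals the median of all genes shifted by -0.20, only Tap2 (0.03) of the 10 stayed above 0, and H2-K1 (-0.27) and H2-T23 (-0.37) did not overlap and were lower in asGM1+ cells. In this comparison 8.59% of all genes were called, and among the 1793 abundant genes 84.3% were above 0 with a median of 0.24. No gene of the 10 had an unadjusted p under 0.05, against 25.4% of all genes. Both DESeq2, with 15.8% of all genes called, and limma-voom, with 13.7%, called 0 of the 10.

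H2-D1 was the 1 gene whose groups did not overlap, where 28.7% of all genes did not. It had 11045, 10907 and 12395 CPM in Flt3L Panc02 asGM1+ libraries against 10734, 9701 and 9972 CPM in Flt3L Panc02 asGM1- libraries. Its log2 fold change was 0.18 ± 0.10 (adjusted p = 0.279). With plain library totals it had 10480.1, 10395 and 10869.5 CPM in Flt3L Panc02 asGM1+ and 11124, 10629 and 10595.5 CPM in Flt3L Panc02 asGM1- libraries. The groups then overlapped, and the log2 difference was -0.03.

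H2-K1 had 6070.2, 6559.8 and 7408 CPM in Flt3L Panc02 asGM1+ and 7763, 6460.1 and 6774 CPM in Flt3L Panc02 asGM1- libraries, and H2-T23 had 1164, 1121 and 1438 CPM in Flt3L Panc02 asGM1+ and 1576, 1256 and 1350.4 CPM in Flt3L Panc02 asGM1- libraries. In both genes the highest asGM1+ value was that of library 3 and the highest asGM1- value that of library 1, and the groups overlapped. The log2 fold changes were -0.07 ± 0.11 for H2-K1 and -0.17 ± 0.12 for H2-T23. B2m had 3215, 3229 and 3629 CPM in Flt3L Panc02 asGM1+ libraries, within the span of 3822, 2496 and 3151 CPM in Flt3L Panc02 asGM1- libraries (0.09 ± 0.16).

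Tap1 had 759, 719 and 787 CPM in Flt3L Panc02 asGM1+ and 631, 735 and 739.8 CPM in Flt3L Panc02 asGM1- libraries (0.11 ± 0.10). Tap2 had 506, 556 and 532 CPM in Flt3L Panc02 asGM1+ and 364, 501 and 506 CPM in Flt3L Panc02 asGM1- libraries (0.22 ± 0.13). Library 1 of the asGM1- cells was the lowest of the 6 for both transporter subunits, and the Tap2 groups met at 506 CPM. Tapbp had 1192, 1059.9 and 935 CPM in Flt3L Panc02 asGM1+ and 970.2, 1105 and 1047 CPM in Flt3L Panc02 asGM1- libraries, a difference of 0.03 ± 0.11.

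Psmb8 had 1598, 1564 and 2144 CPM in Flt3L Panc02 asGM1+ and 1875, 1409.7 and 1521 CPM in Flt3L Panc02 asGM1- libraries (0.14 ± 0.14). Psmb9 had 529, 497 and 677 CPM in Flt3L Panc02 asGM1+ and 646, 446 and 489.9 CPM in Flt3L Panc02 asGM1- libraries (0.11 ± 0.15). Both followed the pattern of H2-K1, with asGM1+ library 3 and asGM1- library 1 highest. Nlrc5 ran the other way: it had 116, 132 and 94.2 CPM in Flt3L Panc02 asGM1+ libraries, with library 3 lowest, and 111, 171 and 154 CPM in Flt3L Panc02 asGM1- libraries, with library 1 lowest. Its fold change of -0.35 ± 0.18 (interval -0.74 to 0.04, adjusted p = 0.248) was the largest of the 10 in size. The 95% intervals of the 10 genes allow folds between 0.597 and 1.42.

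Averaged over the tumours, the gate difference was nearest a call for H2-T23, at -0.27 ± 0.08 (adjusted p = 0.0818), and 0 of 10 genes were called while 6.19% of all genes were. H2-T23 and H2-K1 (-0.18 ± 0.08, adjusted p = 0.241) had an unadjusted p under 0.05, which 11.5% of all genes had with a lower level. H2-T23 was called by DESeq2 (adjusted p = 0.03), which called 11.5% of all genes. It was also called by limma-voom (adjusted p = 0.00552), together with H2-K1 and 12.4% of all genes. Without library 3 of the Flt3L Panc02 asGM1+ cells, edgeR called H2-T23 as well (adjusted p = 0.0208).

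**Figure D2:**
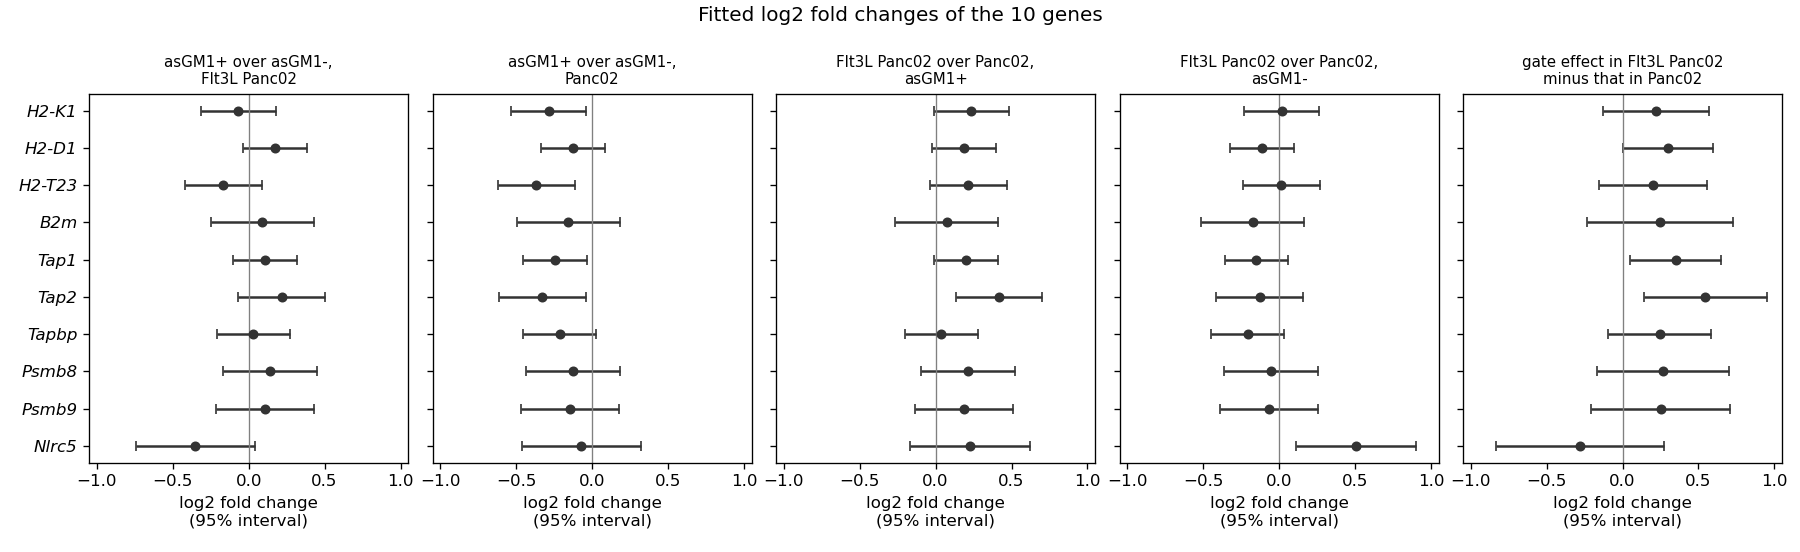
Fitted log2 fold changes (points) with 95% intervals (bars) of the 10 genes in 5 comparisons, each named with the group on top of the fold first. All 10 points lie left of 0 for asGM1+ over asGM1- cells in Panc02 tumours and right of 0 for Flt3L Panc02 over Panc02 in asGM1+ cells, and no gene was called in any panel. With plain library totals B2m and Tapbp would lie left of 0 in the last of these.

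The gate differences in the tumour types were compared directly by the interaction, the gate difference in Flt3L Panc02 minus that in Panc02 tumours. It was above 0 for 9 of the 10 genes and below 0 for Nlrc5, with a median of 0.25, and 0 were called, against 0.367% of all genes. Tap2 (0.55 ± 0.18, adjusted p = 0.209), Tap1 (0.35 ± 0.14, 0.267) and H2-D1 (0.30 ± 0.14, 0.33) had an unadjusted p under 0.05, as 5.29% of all genes did in that direction. The median of the 1793 abundant genes was 0.28, and 87.6% of them were above 0. Both DESeq2, with 4.17% of all genes called, and limma-voom, with 3.85%, called 0 of the 10. With plain library totals 7 of the 10 were above 0, and H2-K1 and H2-T23 were below it with Nlrc5.

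Between tumours, asGM1+ cells from Flt3L Panc02 tumours had higher fitted levels of all 10 genes than asGM1+ cells from Panc02 tumours, with a median log2 fold change of 0.21, and 0 of 10 were called, against 6.25% of all genes. Among the 1793 abundant genes the median was 0.16 and 73.8% were above 0. H2-D1, H2-T23, Tap1 and Tap2 did not overlap between these groups and were higher in Flt3L Panc02, as were 14.2% of all genes. Among the 1793 abundant genes, 44.8% did not overlap in 1 direction or the other. With plain library totals the median of all genes shifted by -0.13, 8 of the 10 were above 0, B2m and Tapbp were at -0.06 and -0.10, and Tap2 alone did not overlap. These comparisons share libraries with the gate comparisons above and are no independent measurement.

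Tap2 had the largest of these differences: its Flt3L Panc02 asGM1+ values of 506 to 556 CPM lay above its Panc02 asGM1+ values of 368 to 445 CPM. The log2 fold change was 0.42 ± 0.13 (1.34-fold, interval 0.13 to 0.70, adjusted p = 0.0792). Tap2 alone of the 10 had an unadjusted p under 0.05, against 24.4% of all genes. It was called by DESeq2 (adjusted p = 0.0238), with 14.5% of all genes, and by limma-voom (0.00976), with 15.3%. It was also called by edgeR without Flt3L Panc02 asGM1- library 1 (0.0258) or without Panc02 asGM1+ library 3 (0.0481). The others ran from 0.04 ± 0.11 for Tapbp to 0.23 ± 0.11 for H2-K1, and the intervals of the 10 allow folds between 0.832 and 1.63.

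In asGM1- cells, Nlrc5 differed in direction from most of the 10 genes, and from most abundant genes. It had 111 to 171 CPM in Flt3L Panc02 asGM1- libraries against 90.2 to 125 CPM in Panc02 asGM1- libraries, and these ranges overlapped through library 1 of each. The log2 fold change was 0.51 ± 0.18 (1.42-fold, interval 0.11 to 0.90, adjusted p = 0.14), and 0 of 10 genes were called, against 3.7% of all genes. Nlrc5 alone had an unadjusted p under 0.05, against 20.3% of all genes. DESeq2 called 0 of the 10, with 10.7% of all genes called. Limma-voom called Nlrc5 (adjusted p = 0.00485) with 17.3% of all genes, and edgeR called it without Flt3L Panc02 asGM1- library 1 (0.0467). Of the other genes, 7 had fold changes below 0 (5 with plain library totals), from -0.21 ± 0.11 for Tapbp to -0.05 ± 0.14 for Psmb8, and H2-T23 (0.01) and H2-K1 (0.02) were near 0. Among the 1793 abundant genes the median was -0.11 and 30.9% were above 0, against a median of -0.09 for the 10 genes. Tapbp was the 1 gene with no overlap, where 12.9% of all genes were lower with none.

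Averaged over the gates, Nlrc5 was 1.29-fold of its Panc02 level in Flt3L Panc02 tumours (log2 fold change 0.37 ± 0.13, adjusted p = 0.0884), and the other 9 genes lay between -0.08 and 0.14. None of the 10 was called, while 11.3% of all genes were, and Nlrc5 alone had an unadjusted p under 0.05, against 26.1% of all genes. DESeq2 called Nlrc5 (adjusted p = 0.0363) with 17.4% of all genes, and limma-voom called Nlrc5 and Tap2 with 23.8%. By edgeR, Nlrc5 was called without library 1 of either asGM1- group (adjusted p = 0.024 without Flt3L Panc02 asGM1- library 1 and 0.0487 without Panc02 asGM1- library 1).

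Within groups, the 10 genes varied in 2 blocks. H2-K1, H2-D1, H2-T23, B2m, Psmb8 and Psmb9 deviated from their group means together, and Tap1, Tap2, Tapbp and Nlrc5 tended to deviate the other way, though not in every library. Over the 12 deviations, Pearson's r was 0.98 between Psmb8 and Psmb9, 0.92 between H2-K1 and H2-D1 and 0.69 between Tap1 and Tap2, but -0.94 between Psmb9 and Nlrc5. The second block was looser, with an r of 0.48 between Tap1 and Tapbp and 0.29 between Tap2 and Tapbp. Between the blocks, H2-D1 and Tap1 had only -0.28. Tap1 and Psmb9, whose promoter windows overlap, had an r of -0.42 within groups and of 0.05 over the 12 levels. These are descriptions over libraries that share their depth and preparation.

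The libraries behind this were also set apart by gene length. The 10281 genes with a mean of 5 CPM or more and a known length were put into 5 classes of equal size by merged exon length. The median deviation of the shortest class minus that of the longest was 0.39 in Flt3L Panc02 asGM1+ library 3 and 0.36 in Flt3L Panc02 asGM1- library 1 on the log2 scale. It was -0.29 in Flt3L Panc02 asGM1- library 2 and -0.23 in Panc02 asGM1- library 1. B2m, the shortest of the 10 genes with 860 exon bases, deviated by 0.30 in Flt3L Panc02 asGM1- library 1 and by -0.32 in library 2 of that group. Nlrc5, the longest with 8493 bases, deviated by -0.37 and 0.26 in the same libraries. Merged exon length does not order all 10: Psmb9, with 3660 bases, deviated with the shorter genes, and Tapbp (3628 bases) and Tap2 (3781 bases) with the longer. Merged exons pool all annotated transcripts, and the message made can be shorter, so the order by true message length is not known here. With each library's trend on length taken off, a setting chosen after the data were seen, edgeR called Nlrc5 higher in Flt3L Panc02 than in Panc02 asGM1- cells (adjusted p = 0.0402) and in the mean of the gates (0.00582). It called Tap1 and Tap2 higher in Flt3L Panc02 asGM1+ than in Panc02 asGM1+ cells, and none of the 10 in a gate comparison.

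**Figure D3:**
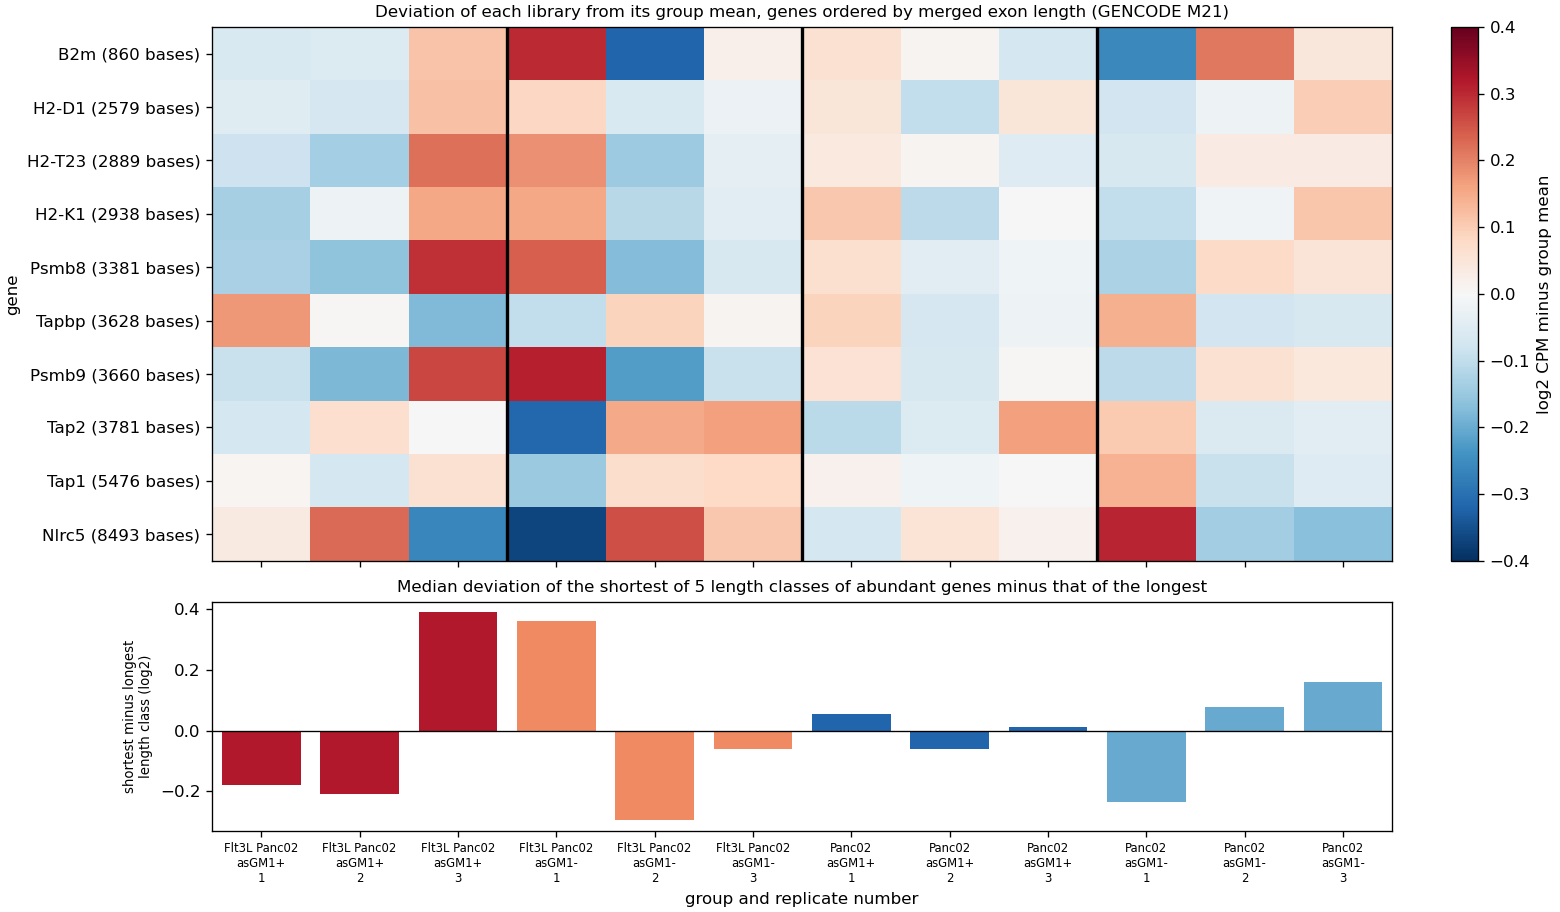
Upper panel, log2 CPM of each gene in each library minus its group mean, with genes from shortest (top) to longest merged exon length and black lines between groups. Lower panel, the median deviation of the shortest of 5 length classes of 10281 genes minus that of the longest, in log2 units; Flt3L Panc02 asGM1+ library 3 and Flt3L Panc02 asGM1- library 1 have the highest bars, and B2m and Nlrc5 deviate in opposite directions there.

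Among the 10332 genes that averaged 5 CPM or more, those whose log2 CPM ran most like a member over the 12 libraries differed by member. H2-T23 was most like the interferon-induced genes Ifi27l2a (r = 0.94) and Ifi47 (0.93) and the class I gene H2-Q7 (0.92), which was also among the first 3 for H2-K1 (0.93). Psmb9 was most like Suclg1 (0.96) and the proteasome activator subunit Psme2 (0.96). Tap2 was most like Mob3a (0.97), and Nlrc5 most like Atf7ip (0.97). With 12 points and this many genes, such values are a description only.

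The immunoproteasome subunits were set against the constitutive subunits they replace, since a ratio within a library does not depend on its scaling. It can still carry differences that run with gene length. For asGM1+ over asGM1- cells in Flt3L Panc02 tumours, the median log2 fold change was 0.24 in the shortest length class and -0.08 in the longest. In Panc02 tumours these medians were -0.01 and 0.05. The part of length in the ratios was not tested. The CPM ratio of Psmb8 to Psmb5 was 4.55, 4.74 and 4.54 in Flt3L Panc02 asGM1+ libraries, against 5.05, 6.07 and 5.70 in Flt3L Panc02 asGM1- libraries. It was 4.86, 4.85 and 4.43 in Panc02 asGM1+ libraries, against 5.09, 4.98 and 4.87 in Panc02 asGM1- libraries. In both tumours every asGM1+ ratio lay below every asGM1- ratio. The same was true of Psmb9 to Psmb6, with 1.20, 1.23 and 1.08 in Flt3L Panc02 asGM1+ and 1.50, 1.43 and 1.42 in Flt3L Panc02 asGM1- libraries. In Panc02 tumours it was 1.24, 1.18 and 1.10 in asGM1+ and 1.35, 1.30 and 1.28 in asGM1- libraries.

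Psmb10, the remaining immunoproteasome subunit, had ratios to Psmb7 of 4.01, 3.74 and 3.96 in Flt3L Panc02 asGM1+ and 6.32, 4.98 and 4.55 in Flt3L Panc02 asGM1- libraries, with no overlap. In Panc02 tumours they were 4.04, 3.12 and 3.43 in asGM1+ and 4.28, 4.04 and 4.59 in asGM1- libraries, which met near 4.04. As log2 differences, asGM1+ minus asGM1- cells, the ratio with Psmb8 gave -0.28 in Flt3L Panc02 and -0.08 in Panc02 tumours, that with Psmb9 gave -0.31 and -0.16, and that with Psmb10 gave -0.42 and -0.29. Each reached an exact two-sided permutation p of 0.1, the smallest that 3 libraries against 3 allow, except Psmb10 in Panc02 tumours (exact p = 0.2), and adjusted over the 12 ratio tests none was under 0.2. The 12 also compared Flt3L Panc02 with Panc02 tumours. In asGM1- cells the log2 differences were 0.17 with Psmb8 (exact p = 0.2), 0.15 with Psmb9 (0.1) and 0.28 with Psmb10 (0.2). In asGM1+ cells they were -0.03 (0.8), -0.01 (0.9) and 0.15 (0.4). Of the single genes, Psmb7 rose in asGM1+ cells of Flt3L Panc02 tumours (0.50 ± 0.13, adjusted p = 0.0342), and Psmb5 (0.41 ± 0.18, 0.176) and Psmb6 (0.44 ± 0.16, 0.123) were not called, nor was Psmb10 (0.07 ± 0.15, 0.822). The call of Psmb7 was lost under 10 of 24 other settings, with adjusted p up to 0.123, among them without Flt3L Panc02 asGM1+ library 2 or 3, without any Flt3L Panc02 asGM1- library or Panc02 asGM1- library 3, and with upper quartile scaling.

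**Figure D4:**
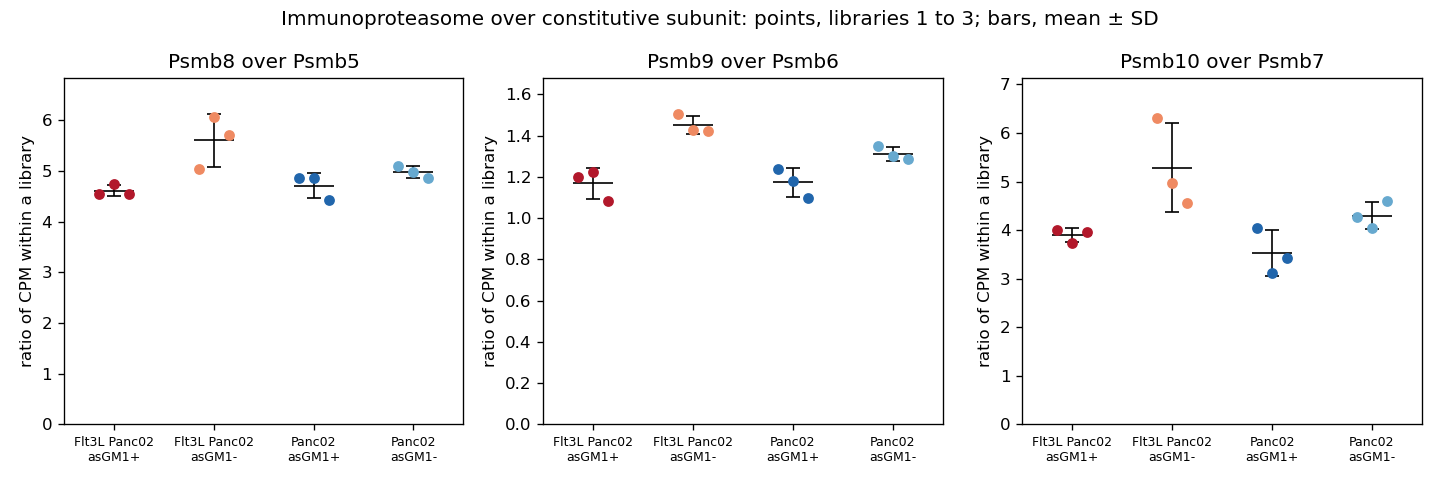
Ratio of the CPM of an immunoproteasome subunit to that of the constitutive subunit it replaces, in each library (points), with the group mean and SD as bars and y axes from 0. The asGM1+ ratios lie below the asGM1- ratios in both tumours for Psmb8 over Psmb5 and Psmb9 over Psmb6.

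Around the 10 genes, interferon-induced genes fell in asGM1+ cells of Flt3L Panc02 tumours. These and all lists below were chosen with earlier results of these data known, and the counts are no independent support. In Flt3L Panc02 tumours, 9 of 15 interferon gamma-induced GTPases fell in asGM1+ cells and 0 rose (median -0.57), as did 11 of 24 type I interferon response genes (-0.71), where 5.83% of all genes fell. Tgtp1, a GTPase that acts against intracellular parasites, had 139.8, 112 and 138 CPM in Flt3L Panc02 asGM1+ and 392, 276 and 290.4 CPM in Flt3L Panc02 asGM1- libraries (-1.30 ± 0.18, adjusted p = 0.00149). Its near-copy Tgtp2 (-1.04 ± 0.14, 0.00157), Gbp6 (-0.60 ± 0.10, 0.00571) and Gbp8 (-0.64 ± 0.12, 0.00706) fell too, as did Irf7, a transcription factor of the type I response (-0.91 ± 0.12, 0.00135), and Usp18, its brake (-1.08 ± 0.19, 0.00543). How reads were divided between Tgtp1 and Tgtp2 is uncertain. Both counts shrank without single libraries, the GTPases to 5 without Flt3L Panc02 asGM1+ library 2 or 3. The type I genes shrank to 4 without Flt3L Panc02 asGM1+ library 2, to 5 without Flt3L Panc02 asGM1- library 3, and to 7 without Flt3L Panc02 asGM1+ library 3 or Flt3L Panc02 asGM1- library 2.

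In Panc02 tumours 2 of 15 GTPases fell, Tgtp1 (-1.19 ± 0.18, adjusted p = 0.00708) and Tgtp2 (-0.98 ± 0.14, 0.0062), where 0.843% of all genes fell. Of the 24 type I genes edgeR called 0, with 3 lower at an unadjusted p under 0.05, while DESeq2 called 0 and limma-voom 2. There 5.44% of all genes were lower at that p, and DESeq2 called 2.81% and limma-voom 4.07%. The difference between the tumours itself was called by edgeR for 0 genes of either list. At an unadjusted p under 0.05, 3 GTPases and 9 type I genes were lower, against 9.56% of all genes. At that p 1 type I gene was higher, against 5.29% of all genes. For that difference DESeq2 called 2 GTPases and 2 type I genes, with 4.17% of all genes. Limma-voom called 0 GTPases and 3 type I genes, with 3.85% of all genes.

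Among class I regulators and interferon gamma signalling genes, Irf1 fell in asGM1+ cells in the mean of the tumours, where 4.51% of all genes fell. Irf1, the factor that binds class I promoters after interferon gamma, had 431, 494 and 476 CPM in Flt3L Panc02 asGM1+ and 618, 590.4 and 545 CPM in Flt3L Panc02 asGM1- libraries. It had 416, 387 and 349 CPM in Panc02 asGM1+ and 534, 518 and 466 CPM in Panc02 asGM1- libraries, with no overlap between the gates in either tumour. In the mean of the tumours it fell by 0.36 ± 0.07 on the log2 scale (adjusted p = 0.0114). Ifng, which makes interferon gamma itself, was not called (0.48 ± 0.26, adjusted p = 0.329). In Flt3L Panc02 tumours alone 1 of 18 genes of this list fell, the receptor chain Ifngr2 (-1.47 ± 0.36, 0.0297). That call was lost under 7 of 24 other settings, without any 1 of the 6 Flt3L Panc02 libraries and with no filter on low counts (adjusted p up to 0.0872). In Panc02 tumours edgeR called 0, with 4 lower at an unadjusted p under 0.05, DESeq2 called 1 and limma-voom 3. There 5.44% of all genes were lower at that p, and DESeq2 called 2.81% and limma-voom 4.07%.

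**Figure D5:**
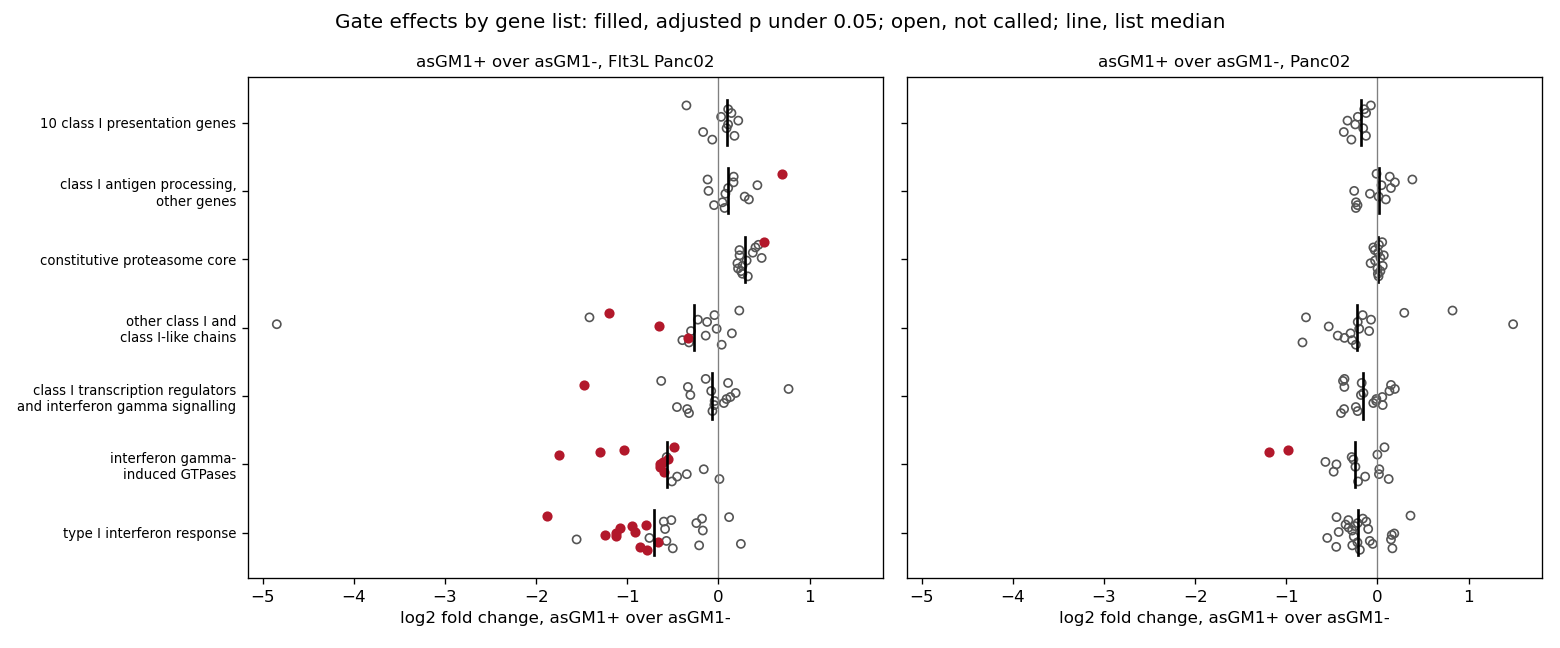
Log2 fold changes of asGM1+ over asGM1- cells for the 10 genes and 6 gene lists in Flt3L Panc02 (left) and Panc02 tumours (right), on 1 shared axis; filled points were called, open points were not, and the black line is the list's median. In Flt3L Panc02 tumours the 10 class I genes lie close to 0 with no filled point, while 9 GTPases and 11 type I interferon genes are filled below 0. In Panc02 tumours all 10 lie below 0, unfilled, with a median of -0.19. The medians there are -0.24 for the GTPases, with 2 filled, and -0.22 for the type I genes, with 0 filled.

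Other class I chains held 16 tested genes of 19 listed, and 2 fell in asGM1+ cells in the mean of the tumours. H2-Q6, a Qa-2 family chain, had 434, 445 and 420.2 CPM in Flt3L Panc02 asGM1+ and 558, 579.8 and 501 CPM in Flt3L Panc02 asGM1- libraries. It had 416, 400.1 and 414 CPM in Panc02 asGM1+ and 545, 505 and 531 CPM in Panc02 asGM1- libraries, again without overlap (-0.35 ± 0.06 in the mean, adjusted p = 0.00463). H2-T24 was the other (-0.59 ± 0.12, adjusted p = 0.0149). Q-region genes are close paralogs, so the division of reads between H2-Q6 and its neighbours is uncertain. In Flt3L Panc02 tumours 3 of the 16 fell, H2-Q6, H2-T24 and Fcgrt, the neonatal Fc receptor chain (-1.20 ± 0.32, 0.041). That count was 0 without Flt3L Panc02 asGM1+ library 2 or 3 or Panc02 library 2 of either gate, 0 with no filter on low counts, and 1 without any other Flt3L Panc02 library or Panc02 asGM1- library 3. In Panc02 tumours edgeR called 0 of the 16, with 4 lower and 1 higher at an unadjusted p under 0.05, DESeq2 called 3 and limma-voom 2. There 5.44% of all genes were lower and 4.56% higher at that p, and DESeq2 called 2.81% and limma-voom 4.07%.

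Of 13 further genes of antigen processing 1 rose in Flt3L Panc02 asGM1+ cells, the peptidase Thop1 (0.70 ± 0.17, adjusted p = 0.029), and of 14 constitutive proteasome core subunits 1 rose, Psmb7. The call of Thop1 was lost under 6 of 24 other settings (adjusted p up to 0.0875), in a fit to these 6 libraries alone and without any 1 of them but Flt3L Panc02 asGM1- library 2. In Flt3L Panc02 tumours 2.77% of all genes rose. In Panc02 tumours edgeR called 0 of either list. At an unadjusted p under 0.05, 1 processing gene was higher and 1 lower there and 0 core subunits differed, against 4.56% of all genes higher and 5.44% lower. DESeq2, with 2.81% of all genes, and limma-voom, with 4.07%, each called 1 processing gene and 0 core subunits. Between tumours, in the mean of the gates, the chaperones Canx (-0.31 ± 0.09, 0.0457) and Pdia3 (-0.29 ± 0.08, 0.0328) fell and the tapasin relative Tapbpl rose (0.25 ± 0.07, 0.0356), and 0 of the 14 core subunits were called by edgeR or had an unadjusted p under 0.05. Cd1d1, which presents lipids to natural killer T cells, rose in Flt3L Panc02 tumours (0.59 ± 0.10, 0.00367), as did Irf1 (0.25 ± 0.07, 0.0467), Rfxank (0.28 ± 0.08, 0.047) and H2-T24 (0.42 ± 0.12, 0.0485), while the iron regulator Hfe fell (-1.30 ± 0.26, 0.00914). The calls of Irf1, Canx, Pdia3, Rfxank and H2-T24 were lost under 13 to 16 of 23 other settings and that of Tapbpl under 8, and those of Cd1d1 and Hfe under none. Markers of other cells differed between the tumours too: in the mean of the gates 11 of 13 macrophage and monocyte markers (5 to 11 without single libraries) and 4 of 7 fibroblast markers (2 to 4) fell in Flt3L Panc02, where 7.26% of all genes fell. There 5 of 11 plasmacytoid dendritic cell markers rose (3 to 6 without single libraries), where 4.08% of all genes rose. Their part in the differences between tumours was not tested.

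MHC class II genes, markers of antigen-presenting cells, were present in every library. Their 9 genes summed to 1658 to 2019 CPM in Flt3L Panc02 asGM1+, 2332 to 2576 CPM in Flt3L Panc02 asGM1-, 1923 to 6082 CPM in Panc02 asGM1+ and 1967 to 3051 CPM in Panc02 asGM1- libraries. In Flt3L Panc02 tumours 3 of 9 fell in asGM1+ cells, H2-Oa (-1.40), H2-Ob (-2.94) and H2-DMa (-0.99), where 5.83% of all genes fell. In Panc02 tumours 1 of 9 fell, H2-Oa (-1.25), where 0.843% of all genes fell. At an unadjusted p under 0.05, 4 of the 9 were higher and 2 lower in Panc02 asGM1+ cells, with a median log2 fold change of 0.70. At that p 4.56% of all genes were higher and 5.44% lower. Without Panc02 asGM1+ library 3, 6 of the 9 were called higher and 1 lower. Over the other settings, 94 to 831 of all genes were called in this comparison. Ciita, the class II counterpart of Nlrc5, was not called in either (-0.40 ± 0.35 in Flt3L Panc02 and 0.70 ± 0.35 in Panc02 tumours).

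Markers of other cells moved with the gates. The 10 T cell markers, among them Cd3e and Cd8a, summed to 13051 to 16595 CPM in Flt3L Panc02 asGM1+, 10237 to 11671 CPM in Flt3L Panc02 asGM1-, 9586 to 11443 CPM in Panc02 asGM1+ and 9959.5 to 12726 CPM in Panc02 asGM1- libraries, so the T cell label had its markers, and 2 of 10 rose in asGM1+ cells in Flt3L Panc02 tumours, where 2.77% of all genes rose. None of these rose without Flt3L Panc02 asGM1+ library 2 or 3 or Flt3L Panc02 asGM1- library 2. Plasmacytoid dendritic cell markers summed to 813 to 936 CPM in Flt3L Panc02 asGM1+, 1688 to 1834 CPM in Flt3L Panc02 asGM1-, 756 to 903 CPM in Panc02 asGM1+ and 1021 to 1128 CPM in Panc02 asGM1- libraries, and 7 of 11 fell in asGM1+ cells in each tumour, against 5.83% of all genes in Flt3L Panc02 and 0.843% in Panc02 tumours, shares that also hold for the counts of fallen markers that follow. Without Panc02 asGM1- library 1 the count in Panc02 was 4. The list holds Bst2, Tcf4, Runx2 and Irf8, which T cells also make. Conventional dendritic cell markers summed to 21.7 to 31.7 CPM in Flt3L Panc02 asGM1+, 116 to 127 CPM in Flt3L Panc02 asGM1-, 22.3 to 56.4 CPM in Panc02 asGM1+ and 47.0 to 73.5 CPM in Panc02 asGM1- libraries, and 6 of 10 fell in asGM1+ cells in Flt3L Panc02 tumours and 1 of 10 in Panc02 tumours. Macrophage and monocyte markers summed to 640.1 to 872 CPM in Flt3L Panc02 asGM1+, 333 to 573 CPM in Flt3L Panc02 asGM1-, 849 to 3243 CPM in Panc02 asGM1+ and 733 to 1254 CPM in Panc02 asGM1- libraries. Of these 1 of 13 fell in asGM1+ cells in Flt3L Panc02 tumours, Cd68 (-1.13 ± 0.24, adjusted p = 0.0153), and 0 fell without Flt3L Panc02 asGM1+ library 1 or 2. The list's median there was 0.75, with 5 higher at an unadjusted p under 0.05, against 10.8% of all genes. DESeq2 called 4 higher, and 15.8% of all genes in 1 direction or the other. In the mean of the tumours 4 of 13 rose, where 1.68% of all genes rose. That count was 7 without Panc02 asGM1+ library 3 and 0 without Flt3L Panc02 asGM1+ library 2 or 3, Panc02 asGM1+ library 1 or 2 or Panc02 asGM1- library 2 or 3. In Panc02 tumours edgeR called 0 of 13, with 7 higher at an unadjusted p under 0.05, DESeq2 called 0 and limma-voom 2. There 4.56% of all genes were higher at that p, and DESeq2 called 2.81% and limma-voom 4.07%. CD4 and regulatory T cell markers summed to 308 to 337 CPM in Flt3L Panc02 asGM1+, 395 to 408 CPM in Flt3L Panc02 asGM1-, 231 to 279.9 CPM in Panc02 asGM1+ and 395 to 468 CPM in Panc02 asGM1- libraries, and fell in asGM1+ cells for 4 of 6 genes in each tumour (3 or 4 without single libraries in Flt3L Panc02 and 2 to 4 in Panc02). The smaller sums over the 12 libraries ranged from 111.5 to 281 CPM for 6 natural killer cell markers, 39.9 to 153 CPM for tumour epithelium, 8.86 to 179 CPM for fibroblasts, 6.74 to 60.8 CPM for B cells and 3.63 to 28.5 CPM for neutrophils, and 3 of 6 B cell markers were at 0 in every Flt3L Panc02 library. No marker of the other 5 cell type lists was at 0 throughout a group. Class I genes are made by all of these cells, and the part of other cells in the levels was not tested.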

How the data were processed

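RNA-seq of 12 sorted CD8+ cell libraries, in 4 groups of 3, was used. The deposited table holds expected counts for 56980 genes, already whole numbers, which the authors made with HISAT2, StringTie and mm39, per the submitters' processing notes (no versions, and the counting step is not given in the sources used here). Library totals lay between 98663008 and 102896605 counts, and the values step by about 2.71 counts, so 1 sequenced fragment was worth more than 1 count and fewer fragments than counts lie behind a value. No column belonged to another series (0).

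Here edgeR 4.0.16 (R 4.3.3) fitted all 12 libraries with 4 group means, TMM scaling and its filter on low counts (20411 genes kept), with quasi-likelihood tests and Benjamini-Hochberg adjustment over all genes kept. Log2 fold changes are edgeR's, and standard errors and 95% intervals follow from its F statistic. DESeq2 1.42.0 and limma 3.58.1 (voom with quality weights) were alternatives, as were other scalings and filters, a replicate block, leaving out libraries, and, chosen after seeing the data, a correction for gene length. The edgeR script was tested on simulated data. Ratios were compared by exact permutation tests.

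The 10 genes and all gene lists were chosen with earlier results of these data known. Named list genes are up to 4 per list and comparison with the smallest p among those called, plus Psmb5, Psmb6, Psmb7, Psmb10, Ciita, Ifng and Irf1, with 1 further gene not reported here; of the likeness genes, up to 3 per gene. Exon lengths are from GENCODE M21 and promoter windows from RefSeq, both on GRCm38; no mm39 annotation was used here. Whether the protocol kept strand is not given.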

Additional observations from a re-analysis of the deposited data

How the results depend on the processing

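Over 23 or 24 other settings per comparison, the count of the 10 genes called stayed at 0 in Flt3L Panc02 tumours and in the interaction. DESeq2 called 1 gene in the gate mean of the tumours (H2-T23), 1 between tumours in asGM1+ cells (Tap2) and 1 in the tumour mean of the gates (Nlrc5). Limma-voom called 2 for the gates in Panc02 tumours, 2 in the gate mean of the tumours, 1 between tumours in asGM1- cells, 1 in asGM1+ cells and 2 in the tumour mean of the gates. Leaving out 1 library gave 0 to 1 in the gate mean, in both single tumour comparisons and in the tumour mean. The gene length correction gave 1 in asGM1- cells (Nlrc5), 2 in asGM1+ cells (Tap1 and Tap2) and 1 in the tumour mean, and with the replicate block 2 and 1 in the last pair. No called value reversed. The causes were not tested.

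The replicate block alone called 0 of the 10 in all 7 comparisons. Deviations of same-numbered gates correlated at 0.02 to 0.10 in Flt3L Panc02 and 0.10 to 0.28 in Panc02 tumours. Same-numbered libraries of 1 gate in different tumour types correlated at -0.09 to 0.07. The Panc02 values lay above that range and the Flt3L Panc02 values partly within it. The labels do not say whether the numbers pair the libraries, and these values do not settle it. Of all genes, edgeR called 182, 1754 and 1263 for the gates in Panc02, in Flt3L Panc02 and in their mean, and other settings 94 to 831, 768 to 3215 and 809 to 2528. Between tumours it called 756 in asGM1- cells, 1276 in asGM1+ cells and 2315 in their mean, and other settings 94 to 3536, 1 to 3120 and 1317 to 4860. The interaction called 75, and other settings 1 to 852. Lower levels of all 10 genes in Panc02 asGM1+ cells became 9 of 10 by limma-voom or without Panc02 asGM1- library 1, and higher levels of all 10 in Flt3L Panc02 asGM1+ cells became 9 without Flt3L Panc02 asGM1+ library 1.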
